A study of Mus musculus with 4 samples.

Results

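Serpins and kallikreins were followed in 4 arrays of mouse mammary tumours as the 45 genes whose symbol on the array begins with Serpin (30 genes) or with Klk and a digit (15 genes), out of 12393 genes that had a probe set with a single gene symbol. Where a gene had several such probe sets, the brightest over the arrays was used, and 10 of the 45 genes had more than 1. A further 5 probe sets carried the symbols of several family genes at once and were left out.

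Serpins are proteins of which most block serine or cysteine proteases. The protease cleaves an exposed loop of the serpin, which then snaps shut and traps the enzyme in an inactive complex. Some serpins, such as Serpinb5 (maspin) and the collagen chaperone Serpinh1, do not inhibit proteases in this way. Kallikreins are secreted serine proteases. In epidermis, several of them cleave the proteins that hold cornified cells together, and a separate group around Klk1 releases kinins and is best known from salivary gland, kidney and pancreas.

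The tumours came from nulliparous female FVB mice that were wild type (WT) or carried MMTV-PAX8PPARg, a fusion of PAX8 and PPARg driven by the MMTV promoter, a viral promoter that works mainly in mammary epithelium. Every group, placebo included, had received the progestin MP (Depo-Provera, 15 mg) under the skin and then the carcinogen DMBA by gavage, at 1 mg weekly for 4 doses. WT mice were age-matched littermates, and no age is given in the sources used here. Pellets of placebo or of 2.5 mg RU486, which blocks progesterone and glucocorticoid receptors, with a release time of 60 days were placed 1 day after the last DMBA dose and again after 60 days. Each of the 4 groups (WT placebo, WT RU486, PAX8PPARg placebo, PAX8PPARg RU486) had 1 Affymetrix array, made from RNA pooled from 5 mice. There was thus no replicate, the number of arrays limits the precision, and differences between single arrays carry no test.

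Values are probe set signals on a linear scale. Differences were taken between values of log2(signal + 16) after each array was centred on its median, which understates the change of dim genes, and a difference of 1 is 2-fold. The highest of 27 bacterial control probe sets reached 9.6 with placebo and 18.5 with RU486 in WT, and 8.3 and 35.3 in PAX8PPARg, and a signal at or below that level is called within the background range. Relative to WT placebo, the spike-in controls were 1.58 times as bright with RU486 in WT, and 1.01 and 2.44 times with placebo and RU486 in PAX8PPARg, so both RU486 arrays lay above both placebo arrays. Of the mammary tumour markers, all 13 luminal genes were above background on both placebo arrays, but their summed signal was 6445 on the WT RU486 array against 36186 to 40707 on the others, and that of 12 macrophage markers was 67808 against 18583 to 21285. In RNA from whole tissue, fewer cells of a type and less RNA per cell cannot be told apart. The only measure of technical spread was the disagreement between 2 probe sets of a gene. It was taken over 2267 genes with both probe sets at or above the median level of all genes, a level most members did not reach. Expressed per probe set, as the SD of the disagreement divided by the square root of 2, it was 0.26 log2 for RU486 in WT and 0.30 in PAX8PPARg. It holds no spread between mice.

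Of the 45 members, 31 were above background on at least 1 array and 20 on all 4, while 14 were within the background range throughout. Only 10 reached the median of all genes by mean level. Of the 45, 21 differed at least 2-fold in 1 or more of the 4 comparisons, where 35.8% of all genes did. With RU486 in WT, 11 did (16.3% of all genes), in PAX8PPARg 15 (17.7%), between genotypes under placebo 12 (9.83%) and under RU486 14 (21.0%). By direction, with RU486 in WT, 3 members were at least 2-fold higher, where 7.46% of all genes were, and 8 were at least 2-fold lower, where 8.88% of all genes were. In PAX8PPARg, 13 were higher against a background of 10.6% and 2 were lower against 7.08%, and 3 of the 13 (Klk1b16, Serpina12 and Serpinb2) were within the background range on both arrays compared. Between genotypes under placebo, 3 members were higher in PAX8PPARg and 9 lower, against 4.34% and 5.49% of all genes. Without centring these counts were 4 and 6. Under RU486, 11 were higher in PAX8PPARg and 3 lower, against 10.9% and 10.2%. The median over all 45 members, beside that of all genes, was 0.02 against 0.01 for RU486 in WT, 0.49 against 0.13 for RU486 in PAX8PPARg, -0.23 against -0.15 for genotype under placebo and -0.01 against 0.01 for genotype under RU486.

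**Figure D1:**
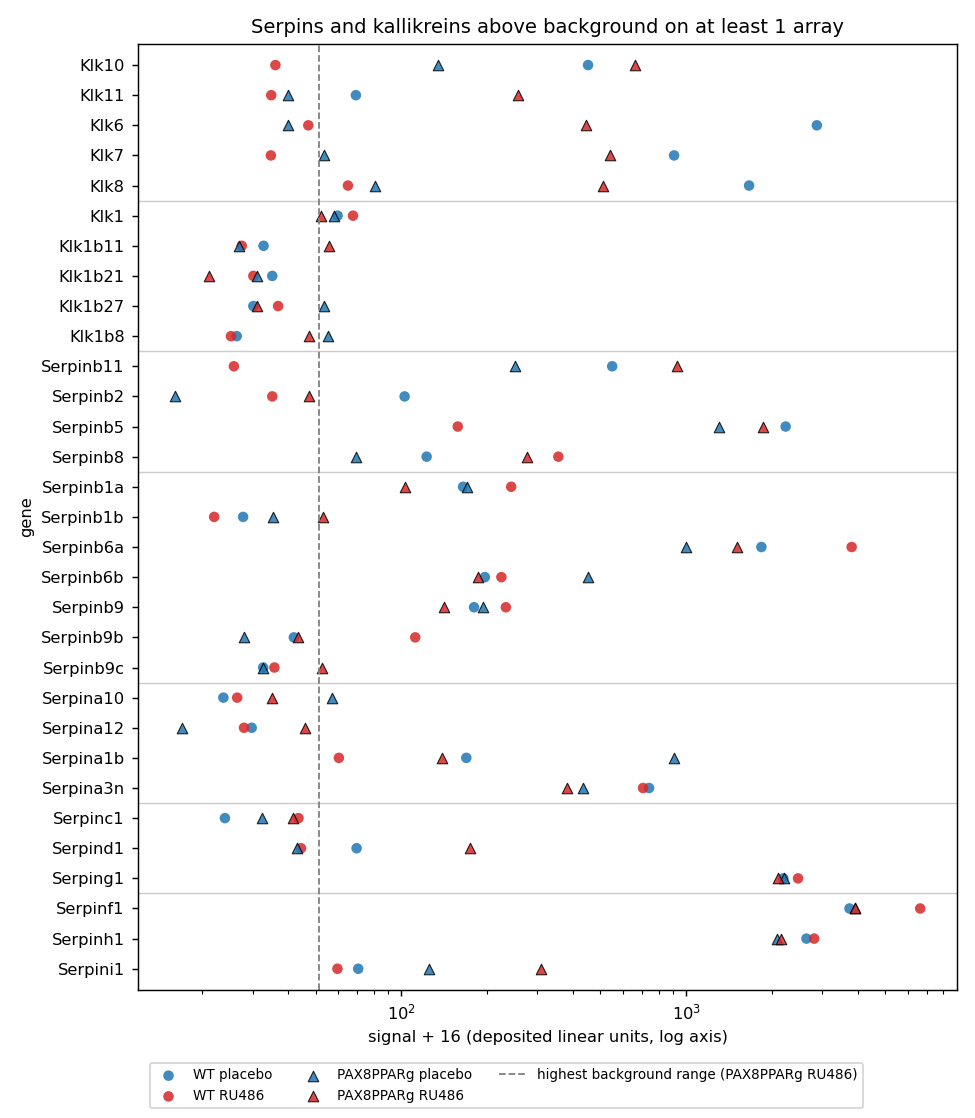
Signal plus 16 (log axis) of the 31 serpins and kallikreins above background on at least 1 array, 1 point per array, with horizontal lines between the groups of genes. Circles are WT, triangles PAX8PPARg, blue placebo and red RU486. The dashed line marks the highest background range, that of the PAX8PPARg RU486 array at a signal of 35.3, and the points of Klk6, Klk7, Klk8 and Klk10 lie far apart while those of Serping1, Serpinf1 and Serpinh1 lie close together.

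The epithelial kallikreins showed the widest spread of the groups of members. Klk6, Klk7, Klk8, Klk10 and Klk11 lie side by side in the annotated genome, in the order Klk11, Klk10, Klk8, Klk7 and Klk6, with 1 other protein-coding gene between Klk10 and Klk8. All 5 were lower with RU486 in WT, 4 of them by at least 2-fold, and all 5 were at least 2-fold higher with RU486 in PAX8PPARg. The 250 bases before the annotated start of 4 of them are shown here (RefSeq, build GRCm38.p6). Whether RU486 acts on these promoters was not tested. Capitals mark the letters AGAACA or their reverse complement, the 6-letter element that glucocorticoid and progesterone receptors bind. For Klk6, 2 start sites are listed.
Klk10, chr7:43780804-43781053, plus strand: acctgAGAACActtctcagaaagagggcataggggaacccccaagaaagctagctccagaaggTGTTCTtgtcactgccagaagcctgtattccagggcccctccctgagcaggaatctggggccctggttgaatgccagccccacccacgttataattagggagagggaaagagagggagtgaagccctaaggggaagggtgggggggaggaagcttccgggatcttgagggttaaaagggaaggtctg
Klk8, chr7:43797327-43797576, plus strand: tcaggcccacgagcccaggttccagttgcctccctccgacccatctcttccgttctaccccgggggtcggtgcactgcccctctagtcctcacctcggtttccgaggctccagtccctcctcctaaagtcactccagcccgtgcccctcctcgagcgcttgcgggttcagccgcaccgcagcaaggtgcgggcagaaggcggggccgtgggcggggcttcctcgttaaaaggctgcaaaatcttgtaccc
Klk7, chr7:43811044-43811293, plus strand: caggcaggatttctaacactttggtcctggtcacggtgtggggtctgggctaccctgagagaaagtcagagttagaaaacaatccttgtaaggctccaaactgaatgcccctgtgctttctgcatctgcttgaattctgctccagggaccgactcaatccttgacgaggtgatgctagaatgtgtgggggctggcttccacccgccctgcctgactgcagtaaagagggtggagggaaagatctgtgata
Klk6 start site 1, chr7:43824294-43824543, plus strand: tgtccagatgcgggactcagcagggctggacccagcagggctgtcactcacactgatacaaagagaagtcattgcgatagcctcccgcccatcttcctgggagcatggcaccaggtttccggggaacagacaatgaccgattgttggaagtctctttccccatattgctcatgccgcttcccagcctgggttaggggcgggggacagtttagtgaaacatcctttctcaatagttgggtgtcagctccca
Klk6 start site 2, chr7:43825200-43825449, plus strand: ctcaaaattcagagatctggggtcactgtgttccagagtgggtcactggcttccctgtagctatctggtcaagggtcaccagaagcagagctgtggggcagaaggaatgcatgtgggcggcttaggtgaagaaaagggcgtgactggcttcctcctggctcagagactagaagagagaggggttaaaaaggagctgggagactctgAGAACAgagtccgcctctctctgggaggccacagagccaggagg

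The element was found in a promoter window of Klk10, of 1 of the Klk6 start sites, and of Klk11 and Klk4, so in 4 of the 6 epithelial kallikreins, while Klk7 and Klk8 held none. These 6 genes had 8 windows, so their count of genes is not on the scale of a share of windows. Among serpins of clade A (symbols beginning with Serpina), 5 of the 6 with a window held the element too. It is common, at 16.1% of all 32851 promoter windows of that length on either strand, and was in 12 of the 46 windows of members. Its 15-letter palindrome, the element and its reverse complement with 3 unspecified bases between, was in 0 of the 46 windows of members and in 3 of all windows. The TATA box letters TATAAA were in 5 of the 46 windows against 12.4% of all, and the grainyhead-like letters AACNGGTT in 1 (that of Klk1b11) against 1.79%. A match of letters describes the sequence and is not evidence of binding.

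Klk6 encodes a trypsin-like protease of epithelium and nervous tissue. Its signals were 2860.5 with placebo and 31.1 with RU486 in WT, and 24.1 and 430 in PAX8PPARg. Placebo was thus high in WT and low in PAX8PPARg, and RU486 the reverse. The difference for RU486 was -5.93 in WT, or 61.0-fold lower, and 3.61 in PAX8PPARg, or 12.2-fold higher.

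Klk7, the chymotrypsin-like enzyme of the stratum corneum, read 891, 18.8, 37.5 and 524 on the arrays in the same order, and Klk8, which activates other proteases in skin and brain, read 1647, 48.9, 64.5 and 494. Both had the order of Klk6 on the placebo arrays, WT above PAX8PPARg. RU486 minus placebo was -4.70 for Klk7 and -4.68 for Klk8 in WT, and 3.47 and 2.80 in PAX8PPARg. The Klk7 signal on the WT RU486 array lay just above the background range of 18.5, so the size of its difference there is not exact.

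Klk10 is a family member whose loss of expression has been described in breast cancer. It read 436 with placebo and 20.1 with RU486 in WT, and 119 and 647 in PAX8PPARg, the last being the highest. Its differences for RU486 were -3.65 in WT and 2.43 in PAX8PPARg. Klk11 read 53.2, 18.9, 24.1 and 242, with differences of -0.99 in WT, just inside the 2-fold limit, and 2.82 in PAX8PPARg. Klk4, a protease of forming tooth enamel that lies beyond Klk6, did not exceed background on any array, at 0.2 to 11.6.

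**Figure D2:**
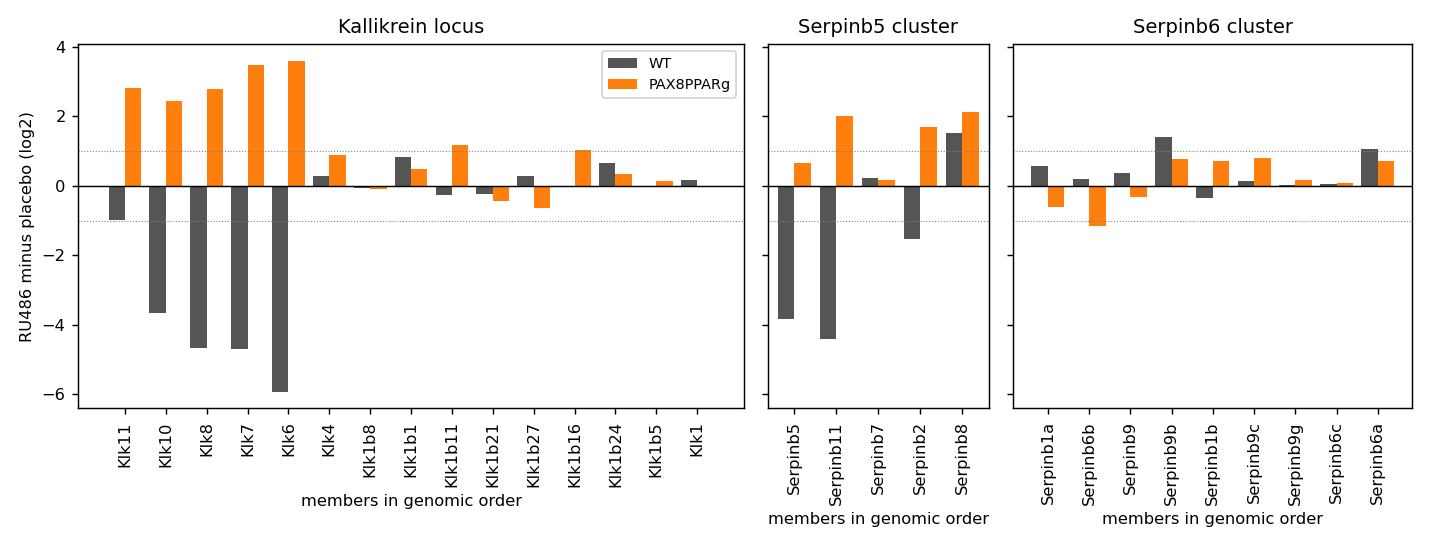
RU486 minus placebo in log2 units (bars from 0; grey WT, orange PAX8PPARg) for members in genomic order within the kallikrein locus and the 2 clusters of clade B serpins; distances are not to scale and dotted lines mark 2-fold. The bars of Klk11 to Klk6 point down in WT and up in PAX8PPARg, whereas those of the Klk1 group lie within 2-fold except for Klk1b11 (1.18) and Klk1b16 (1.03) in PAX8PPARg.

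Markers of cornified epithelium were, like Klk6, Klk7 and Klk8, lower on the WT RU486 and PAX8PPARg placebo arrays than on the remaining arrays. The list summed highest with RU486 in PAX8PPARg, whereas these 3 genes were highest with placebo in WT. Its genes went both ways here. Krt16 read 778 with placebo in WT and 588 with RU486 in PAX8PPARg, while Sprr1a read 1943 and 5597. Of 15 keratinocyte markers, 13 were at least 2-fold lower with RU486 in WT (median -2.77) and 14 at least 2-fold higher in PAX8PPARg (median 3.40), and 14 were lower in PAX8PPARg than in WT under placebo (median -2.28). Their summed signal was 7875 with placebo and 439 with RU486 in WT, and 1430 and 13614 in PAX8PPARg, and 11 of the 15, Krt1, Krt6a and Krt16 among them, did not rise above background with RU486 in WT. The part of these cells in the kallikrein differences was not tested. Of 11 genes on the fixed list of kallikrein substrates and receptors, 6 were at least 2-fold lower and 1, a kinin receptor gene, was higher with RU486 in WT. In PAX8PPARg, 9 of the 11 were higher and 0 lower. Among those lower in WT and higher in PAX8PPARg was Edar (-2.37 and 2.38), a receptor for ectodysplasin rather than a kallikrein target. This list shares a gene with the keratinocyte list. Among the 11, the desmosomal cadherin gene Dsc1 differed by -2.27 and 3.19, and the filaggrin gene Flg by -1.77 and 3.72. The corneodesmosin gene Cdsn, a classic target of Klk7, read 81.0, 7.5, 25.8 and 92.1. On the WT RU486 array, all 3 were within the background range.

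Clade B serpins lack a classical secretion signal and mostly stay inside the cell. In the cluster of Serpinb5, 3 of 5 members were at least 2-fold lower with RU486 in WT and 1 was higher. The cluster holds Serpinb5, Serpinb11, Serpinb7, Serpinb2 and Serpinb8 in this order. All 5, which had 6 windows, held the letters TGANTCA in a promoter window on either strand. These letters are a loose form of the AP-1 element, whose middle base is G or C. They were in 8 of the 46 windows of members, in 6.75% of all windows and in 0 of 6 epithelial kallikreins. The middle base of the matches printed below is A in Serpinb5, A or T in Serpinb11 and G in Serpinb8. Outside the cluster, Serpina1b and Serpina1c were the members that held TGANTCA. Capitals mark it in the 250 bases before the start of the 3 members with the clearest signals, shown for the contrast between Serpinb5 and Serpinb11 on the one hand and Serpinb8 on the other.
Serpinb5, chr1:106860925-106861174, plus strand: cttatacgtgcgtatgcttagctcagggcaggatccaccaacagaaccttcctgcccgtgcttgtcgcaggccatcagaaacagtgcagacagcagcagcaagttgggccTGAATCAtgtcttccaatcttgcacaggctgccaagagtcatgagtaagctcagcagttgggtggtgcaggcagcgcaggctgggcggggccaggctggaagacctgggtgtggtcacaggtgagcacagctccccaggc
Serpinb11, chr1:107362064-107362313, plus strand: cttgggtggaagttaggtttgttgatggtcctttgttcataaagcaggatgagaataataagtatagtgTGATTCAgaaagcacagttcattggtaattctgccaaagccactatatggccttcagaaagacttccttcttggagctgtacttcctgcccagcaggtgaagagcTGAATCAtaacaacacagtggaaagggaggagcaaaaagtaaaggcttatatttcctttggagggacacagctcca
Serpinb8, chr1:107589756-107590005, plus strand: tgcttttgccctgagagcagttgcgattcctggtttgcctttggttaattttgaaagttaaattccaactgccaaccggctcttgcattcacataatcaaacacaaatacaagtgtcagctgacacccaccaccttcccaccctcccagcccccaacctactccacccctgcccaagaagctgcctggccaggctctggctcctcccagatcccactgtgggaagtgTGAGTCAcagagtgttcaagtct

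Serpinb5, or maspin, is made by myoepithelial cells and described as a tumour suppressor of the breast. Its signals were 2219 with placebo and 142 with RU486 in WT, and 1291 and 1850 in PAX8PPARg. The WT RU486 array was thus far below the other 3. RU486 minus placebo was -3.82 in WT, or 14.2-fold lower, and 0.65 in PAX8PPARg. Its 3 probe sets ranged from -3.82 to -1.81 in WT and from -0.01 to 0.65 in PAX8PPARg. Under placebo, they disagreed on the sign of PAX8PPARg minus WT, with a range of -0.96 to 0.91.

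Serpinb11 read 534, 9.8, 234 and 910 in the order of arrays above, the second within the background range. Its differences were -4.41 in WT and 2.02 in PAX8PPARg. Serpinb2, the plasminogen activator inhibitor of macrophages and keratinocytes, read 86.6, 19.2, 0.0 and 31.2, with both PAX8PPARg values within the background range. Its WT difference was -1.54, and -0.86 with a pseudocount of 64. Serpinb7 stayed at 0.1 to 2.7, within the background range on each array.

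Serpinb8, an inhibitor of furin-like proteases, was the member of the cluster that was at least 2-fold higher with RU486 in WT. It read 107 under placebo and 340 under RU486 in WT, and 53.2 and 260 in PAX8PPARg. RU486 minus placebo was 1.54 in WT and 2.13 in PAX8PPARg. Serpinb8 was the single member at least 2-fold higher with RU486 in both genotypes.

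**Figure D3:**
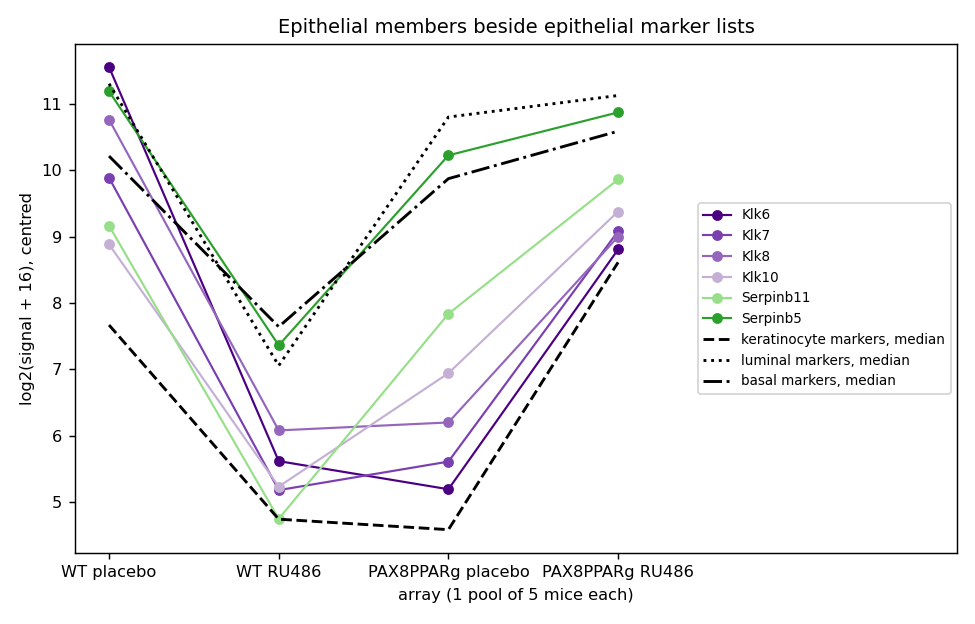
Centred log2(signal + 16) of Klk6, Klk7, Klk8, Klk10, Serpinb11 and Serpinb5 on the 4 arrays (coloured lines), with the median of the keratinocyte, luminal and basal marker lists (black lines); lines join arrays for reading only. All are lower on the WT RU486 than on the WT placebo array, while on the PAX8PPARg placebo array Klk6, Klk7 and Klk8 are low and Serpinb5 is high.

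The genes of this set split on the PAX8PPARg placebo array. Relative to WT placebo, Klk6 was at -6.35, Klk8 at -4.56 and Klk7 at -4.27, whereas Klk10 was at -1.94, Serpinb11 at -1.33, Klk11 at -0.98 and Serpinb5 at -0.96. The median of 13 luminal markers in the same comparison was -0.36 and that of 12 basal markers 0.14, against -2.28 for the keratinocyte list. With RU486 in WT all 3 lists were low (medians -3.02, -2.74 and -2.77). With RU486 in PAX8PPARg Serpinb5 was at 0.65 and the luminal median at 0.46. The basal list split there, with 5 of 12 at least 2-fold higher, such as the keratin genes Krt14 (2.57) and Krt5 (2.26), and 4 lower, the contractile genes Myh11 (-2.45), Cnn1 (-1.71) and Mylk (-1.25) and the oxytocin receptor gene Oxtr (-1.55).

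The other cluster of clade B serpins, from Serpinb1a to Serpinb6a, holds 9 members, of which 2 were at least 2-fold higher, 0 lower and 7 within 2-fold with RU486 in WT (median 0.19). Serpinb6a, a broad inhibitor of intracellular and granule proteases, read 1821 with placebo and 3795 with RU486 in WT, and 980 and 1491 in PAX8PPARg. The WT arrays differed by 1.05 and the PAX8PPARg arrays by 0.73. PAX8PPARg minus WT was -1.07 under placebo and -1.40 under RU486, and the former was -0.88 without centring.

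Serpinb9b read 25.9, 95.8, 11.9 and 27.4, of which the last did not exceed background, with a difference of 1.42 for RU486 in WT (0.83 with a pseudocount of 64). Serpinb1a, an inhibitor of neutrophil granule proteases, read 149, 227, 154 and 86.7, and Serpinb9, which protects cells from granzyme B, read 164, 217, 177 and 125. For both, the WT RU486 array was the highest and the PAX8PPARg RU486 array the lowest, but RU486 minus placebo stayed within 2-fold, at 0.56 and -0.60 for Serpinb1a and 0.37 and -0.31 for Serpinb9. The 2 probe sets of Serpinb1a had the same sign in each of these comparisons. Between genotypes under RU486, Serpinb1a was at -1.30.

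Serpinb6b read 180, 208, 436 and 170 and was the single member of this cluster that was highest on the PAX8PPARg placebo array. Its difference for RU486 in PAX8PPARg was -1.15. Serpinb1b read 11.8, 6.0, 19.4 and 37.1, the second within the background range and the last just above it. Serpinb9c read 16.7 to 36.5, and Serpinb6c and Serpinb9g were within the background range throughout, at 0.1 to 2.1.

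All 12 macrophage markers were at least 2-fold higher with RU486 in WT (median 2.29), the comparison in which Serpinb6a and Serpinb9b were higher, and 1 of 12 was in PAX8PPARg (median 0.05). The part of macrophages in the serpin differences was not tested. Among lysosomal cysteine cathepsins, 2 of 9 were higher in the same WT comparison and 0 lower, namely the dipeptidyl peptidase gene Ctsc (1.35) and the antigen processing gene Ctss (1.25), both named after their values were seen. Of 14 granule protease genes of leukocytes, 5 were at least 2-fold higher, 4 lower and 5 within 2-fold in that comparison. The lower ones included Gzmb and Gzma, at -3.39 and -3.58, and the latter was within the background range on both RU486 arrays. The higher ones included the mast cell protease gene Tpsab1, at 3.44.

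Clade A serpins are mostly plasma proteins made by liver, and 4 of the 8 measured members were within the background range on every array: Serpina1c, Serpina3a, Serpina5 (protein C inhibitor) and Serpina6 (the corticosteroid-binding globulin of plasma), with signals of 0.3 to 17.1. Serpina1b, an alpha-1-antitrypsin, which inhibits neutrophil elastase, read 153 with placebo and 44.3 with RU486 in WT, and 889 and 123 in PAX8PPARg. RU486 minus placebo was -1.49 in WT and -2.57 in PAX8PPARg, and -1.35 and -3.10 for its second probe set. Serpina1b was the single member at least 2-fold lower with RU486 in both genotypes. Both probe sets are of a type that can bind transcripts of near-identical genes, so the value may be shared with other Serpina1 copies. A probe set that carries the symbols Serpina1b, Serpina1c and Serpina1e, left out here, did not show these differences. It read 2.5, 13.2, 0.8 and 5.7 in the order of arrays above, within the background range on each. The 250 bases before the start of Serpina1b are shown for comparison with the clusters, with AGAACA and TGANTCA in capitals on either strand.
Serpina1b, chr12:103738190-103738439, minus strand: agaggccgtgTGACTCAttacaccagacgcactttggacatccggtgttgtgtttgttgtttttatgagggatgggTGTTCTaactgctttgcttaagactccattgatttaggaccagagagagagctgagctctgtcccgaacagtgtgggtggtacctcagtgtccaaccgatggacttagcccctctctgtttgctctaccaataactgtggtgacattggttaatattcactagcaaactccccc

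Under placebo, Serpina1b was 2.23 log2 higher in PAX8PPARg than in WT. Of 8 adipocyte markers, 7 were at least 2-fold higher in that comparison (median 2.90) and all 8 were at least 2-fold lower with RU486 in PAX8PPARg (median -3.94). Hepatocyte markers were near background, with 7 of 11 not above background under placebo in PAX8PPARg and Alb at 51.8, though Fgb read 541 there against 70.3 to 88.6 elsewhere. Lymphocyte markers differed the same way: 5 of 6 B and plasma cell markers were higher (median 3.67) and 9 of 12 T and NK cell markers (median 1.85) in PAX8PPARg under placebo, and 5 and 9 were lower with RU486 in PAX8PPARg (medians -3.49 and -2.04). The part of adipocytes and lymphocytes in the Serpina1b differences was not tested.

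Serpina3n, a mouse counterpart of alpha-1-antichymotrypsin and a known acute phase and glucocorticoid-responsive gene, read 725 with placebo and 689 with RU486 in WT, and 418 and 365 in PAX8PPARg. RU486 arrays thus lay close to their placebo arrays, with differences of -0.07 and -0.05. PAX8PPARg minus WT was -0.96 under placebo and -0.95 under RU486, just inside the 2-fold limit. Of 13 genes of corticosteroid and thyroid hormone handling, 1 was at least 2-fold higher and 2 lower with RU486 in WT, and 0 and 5 in PAX8PPARg. Serpina10, an inhibitor of clotting factor X, read 7.7, 10.5, 41.1 and 19.0 in the same order of arrays. It was above background on the PAX8PPARg placebo array alone. Serpina12 (vaspin, an adipokine) was above background on the WT placebo array alone, at 13.8.

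Of 4 plasma serpins that control clotting, fibrinolysis and complement, 1 was at least 2-fold different with RU486 in either genotype. Serping1, the C1 inhibitor, read 2178, 2455, 2196 and 2090, and its differences ranged from -0.29 to 0.17 over the 4 comparisons. The 4 measured C1 and lectin pathway proteases, among which are its targets, were also within 2-fold for RU486 in both genotypes. Of 17 coagulation genes, 4 were higher and 1 lower with RU486 in WT, and 4 and 2 in PAX8PPARg. Serpind1 (heparin cofactor II, an inhibitor of thrombin) read 53.6, 28.4, 27.1 and 158, the PAX8PPARg RU486 array being the highest, with a difference of 2.15 for RU486 in PAX8PPARg and -0.65 in WT. Serpinc1 (antithrombin) read 8.0 to 27.5, and Serpinf2 (antiplasmin) was within the background range, at 0.7 to 4.3.

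Of 4 members with roles in matrix or nervous tissue, 1 was at least 2-fold different with RU486 in either genotype. Serpinh1, the collagen chaperone of the endoplasmic reticulum, read 2628 with placebo and 2798 with RU486 in WT, and 2076 and 2135 in PAX8PPARg, and its RU486 differences were 0.09 and 0.17. Collagens and collagen-modifying enzymes on the fixed list differed little with RU486, with 0 of 15 at least 2-fold different in WT (median 0.01) and 1 of 15 in PAX8PPARg (median 0.30). Serpinf1 (PEDF, a secreted factor that inhibits blood vessel growth) read 3729, 6617, 3908 and 3895, with the WT RU486 array the highest and a difference of 0.83 there. Its second probe set gave 1.41 for RU486 in WT and -0.64 in PAX8PPARg, where the brighter gave 0.13. Serpini1 (neuroserpin, an inhibitor of tissue plasminogen activator) read 54.5, 43.6, 109 and 293. It differed by 1.44 for RU486 in PAX8PPARg (0.73 for its second probe set) and by 2.32 for genotype under RU486 (1.56). Serpini2, known from pancreas, was within the background range at 0.6 to 10.4.

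The Klk1 group, which includes the tissue kallikrein Klk1 and 8 Klk1b genes, was dim. Of its 9 members, 4 were within the background range on all arrays (Klk1b1, Klk1b5, Klk1b16 and Klk1b24), and 0 were at least 2-fold different with RU486 in WT. With RU486 in PAX8PPARg, 2 were higher, Klk1b11 at 1.18 (0.83 under quantile normalization) and Klk1b16 at 1.03, the latter within the background range. Klk1 itself read 43.7, 51.6, 42.0 and 36.0, and its differences over the 4 comparisons were 0.18, -0.02, -0.23 and -0.44. Klk1b27 and Klk1b8 were highest on the PAX8PPARg placebo array, at 37.6 and 39.3, Klk1b21 read 5.1 to 19.2, and Klk1b11 was highest on the PAX8PPARg RU486 array, at 39.9. These genes are near-identical copies, so signal may be shared between them. Of 9 salivary gland markers, 3 were at least 2-fold higher and 2 lower in PAX8PPARg than in WT under placebo, the comparison in which 0 of the Klk1 group were. Amy1 read 1306 on the PAX8PPARg placebo array against 25.1 to 94.1 elsewhere, Bpifa2 read 645 and 390 on the PAX8PPARg placebo and RU486 arrays, and 8 of 9 did not exceed background with RU486 in WT.

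Genes that work with serpins and kallikreins were read from fixed lists. Of 14 membrane and epithelial serine proteases, 7 were at least 2-fold lower, 6 within 2-fold and 1 higher with RU486 in WT, the last being Htra1 (1.11). Under RU486, 9 were higher and 2 lower in PAX8PPARg than in WT. The matriptase gene St14 read 1234, 71.4, 980 and 1109, and the genes of its inhibitors, Spint1 and Spint2, differed by -3.25 and -3.21 with RU486 in WT and by 0.66 and 1.17 in PAX8PPARg. Of 19 other protease inhibitors, 2 were higher and 7 lower with RU486 in WT (median 0.33), and 9 higher and 1 lower in PAX8PPARg (median 0.72). The stefin gene Stfa3 was lower in WT and higher in PAX8PPARg, at -4.24 and 3.51, and did not exceed background with RU486 in WT.

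The plasminogen system, a main target of serpins, had 0 of 8 genes at least 2-fold higher and 1 lower with RU486 in WT, and 4 higher and 1 lower in PAX8PPARg. Vtn, the gene of vitronectin, which binds plasminogen activator inhibitors, was highest on the PAX8PPARg placebo array, at 335 against 25.7 to 69.7. Of 7 receptors of serpins and serpin complexes, 1 was at least 2-fold higher and 3 lower with RU486 in WT, and 1 and 1 in PAX8PPARg. Lrp1, which clears such complexes, read 711, 2103, 475 and 385, a difference of 1.54 with RU486 in WT, and Sort1 differed by -2.28 there.

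The pair of RU486 comparisons shares no array. Of the 45 members, 6 were at least 2-fold lower with RU486 in WT and at least 2-fold higher in PAX8PPARg (Klk6, Klk7, Klk8, Klk10, Serpinb2 and Serpinb11), where 2.03% of all genes were (3.11% in either opposite order), and 0 had the reverse order. Serpina1b and Serpinb8 were at least 2-fold different in the same direction in both, where 2.44% of all genes were. The difference between the RU486 effects reached 1 log2 for 15 members on the side of PAX8PPARg and for 3 on the side of WT, against 15.6% and 12.2% of all genes (18 in all, against 27.8%). These counts were 12 and 5 under quantile normalization.

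**Figure D4:**
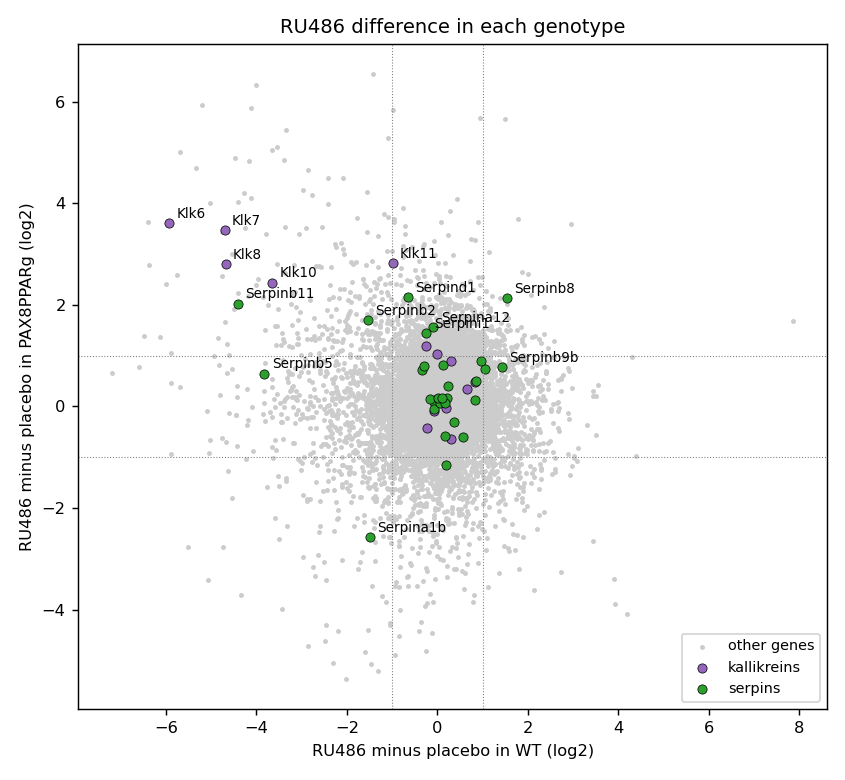
RU486 minus placebo in WT (x axis) against the same in PAX8PPARg (y axis), both in log2 units, for 15 kallikreins (purple), 30 serpins (green) and all other genes (grey); dotted lines mark 2-fold. Klk6, Klk7, Klk8, Klk10 and Serpinb11 sit at the upper left, Serpinb8 at the upper right and Serpina1b at the lower left.

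A model with additive effects of genotype and treatment was the test that the 4 arrays allowed, with 1 residual degree of freedom that holds the difference between the RU486 effects. By limma with Benjamini-Hochberg adjustment at 0.05, 0 of the 45 members and 0.00% of all 12393 genes were called for RU486 or for genotype. At an unadjusted p under 0.05, 4 members were past the limit for RU486 (4.91% of all genes) and 4 for genotype (3.69%). For RU486, Serpinb8 had an effect of 1.83 log2 with an SE of 0.34 and Serpina1b one of -2.03 with an SE of 0.42 (limma, adjusted p = 0.889 for both), each with the same sign in both genotypes. The genes with opposite differences, such as Klk6, put those differences into the residual of this model.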

How the data were processed

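Probe set signals of 4 Affymetrix arrays (linear intensity values) were used as the authors deposited them, and the sources used here name no algorithm or software. Their trimmed mean, with 2% taken from each end, lay between 500.1 and 500.2, a common scale. Of 22690 probe sets, 64 controls were left out, and 20380 of the others had exactly 1 gene symbol (691 had several, 1555 none). They covered 12393 genes, each taken by its brightest probe set, with no filter on level. Values were transformed as log2(signal + 16) and centred on each array's median. Promoter sequences (250 bases before the start, for 41 of the 45 members) and gene order are RefSeq's, build GRCm38.p6.

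Counts are by size, at 2-fold, beside the same count over all genes. limma 3.58.1 in R 4.3.3 fitted the additive model and was tested on simulated data. In those data the RU486 effect was the same in both genotypes, so they do not show what the fit could detect here. Python 3.11.15 was used otherwise. Members at least 2-fold different in any comparison and above background on 1 array, or above a signal of 1000, were named with their signals; others are examples. Partner genes named were at least 4-fold different in a comparison, except where said. The role groups, the 5 motifs and the promoters printed were chosen after values were seen. The alternatives were other pseudocounts, scalings, probe set rules and level filters. The members and lists were chosen with earlier results of these data known.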

Additional observations from a re-analysis of the deposited data

Results flagged for a closer look

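In 6 members RU486 minus placebo was at least 2-fold in opposite directions in the genotypes, lower in WT and higher in PAX8PPARg. With 1 array per group this difference was not tested. The difference between the RU486 effects, PAX8PPARg minus WT, was 9.54 log2 for Klk6, 8.17 for Klk7, 7.48 for Klk8, 6.08 for Klk10, 6.43 for Serpinb11 and 3.24 for Serpinb2. Both PAX8PPARg values of Serpinb2 were within the background range. The median of the same difference over 15 keratinocyte markers was 6.42.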

How the results depend on the processing

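No paired analysis was possible because each group had 1 array, and no replicate could be left out. Among the named members, the 51 differences of at least 2-fold over the 4 comparisons kept their sign under pseudocounts of 1 and 64, no centring, quantile normalization and the mean of probe sets; 51, 37, 48, 47 and 49 of them stayed at least 2-fold. Those lost with a pseudocount of 64 included every 2-fold difference of Klk1b11, Serpina10, Serpina12, Serpinb1a, Serpinb1b and Serpinb6b. With a pseudocount of 1 the members at least 2-fold different numbered 20 in place of 11 for RU486 in WT, 25 in place of 15 for RU486 in PAX8PPARg, 21 in place of 12 for genotype under placebo and 24 in place of 14 for genotype under RU486. With genes at or above the median level only, which left 10 members, they numbered 5, 4, 5 and 5 in that order, and 5 in place of 18 for the difference between RU486 effects. The median over members was 0.11 in place of 0.49 for RU486 in PAX8PPARg under quantile normalization. It was -0.96 in place of -0.23 for genotype under placebo, and -0.31 in place of -0.01 under RU486, with genes at or above the median level, and -0.47 and 0.37 with genes above background. The additive fit called 0 members under each alternative run. Signals near the background range limit the size of differences, as for Serpinb11, Klk7, Klk10 and Klk11 with RU486 in WT.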
